A study of Homo sapiens with 31 samples.

Results

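COL1A2, CASD1, SGCE, PEG10 and PPP1R9A lie next to each other, in that order, on band 7q21 of human chromosome 7. The question was whether these neighbours change together in lymphoma cells that carry an altered RHOA. The 5 genes were chosen by their position and by their known levels in the comparison described here, out of 25073 genes in the table, and 4 of them were among the 13698 genes with enough reads to be tested. Because they were selected on this comparison, their values are given as a description, with no test.

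The series holds 31 RNA sequencing samples in 11 groups, and 4 of these samples bear on the members. They come from TMD8, an established cell line of activated B-cell-like (ABC) diffuse large B-cell lymphoma. In 2 libraries (R5W) the cells carried the p.R5W change in RHOA, a small GTPase that governs the actin cytoskeleton, and in 2 libraries (WT) RHOA was wild type. Both groups received 50 nM copanlisib, an inhibitor of PI3 kinase, overnight, so no library shows these cells without the drug. The labels do not say whether the R5W cells were 1 clone, nor whether replicates were separate cultures, so p-values measure only the spread between these samples. The drug-treated libraries of the series, made at another facility with another kit, were not used here.

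The libraries held 21002165 and 19460572 reads in R5W and 21956526 and 20592621 reads in WT. RHOA itself stood at log2 13.66 and 13.73 in R5W and at 13.83 and 13.70 in WT, a difference of -0.07 (SE 0.07, limma adjusted p = 0.531), which carries no information on the altered codon. All 8 listed B-cell markers were detected in every library, among them MS4A1 at 32470 and 39350 scaled reads in R5W and 56620 and 56070 in WT. In R5W 5 of the 8 passed the test as lower, against 11.9% of all tested genes, and 1, IRF4, as higher, against 13.1%. The calls of CD79A, CD79B and BLNK were lost without either WT library, where their differences were -0.324 to -0.22. The 4 T-cell markers in the table summed to 54 and 51 scaled reads in R5W against 97 and 101 in WT, nearly all from CD8A, with CD3D and CD3G at 0. The 5 myeloid markers summed to 7 and 17 in R5W against 11 and 10 in WT. The 5 epithelial markers summed to 2600 and 3225 in R5W against 3295 and 2692 in WT, mostly CDH1, with EPCAM and KRT19 at 0. KRT8, the other one tested, rose, with 351.4 and 311.3 in R5W against 90.3 and 101.1 in WT (log2 difference 1.78, SE 0.16, limma adjusted p = 7.69e-06).

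The band is known for genomic imprinting, in which a gene is read from the copy of 1 parent. PEG10 and SGCE start beside each other on opposite strands and are both read from the paternal copy. PEG10 descends from a retrotransposon and has kept a gag-like and a pol-like reading frame, joined by a ribosomal frameshift, and it is known for its role in the placenta. SGCE encodes epsilon-sarcoglycan, a membrane protein of the dystrophin-associated complex. CASD1 encodes the enzyme that adds O-acetyl groups to sialic acid, COL1A2 the alpha 2 chain of type I collagen, and PPP1R9A the actin-binding scaffold neurabin-1, a partner of protein phosphatase 1.

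The stretch that distinguishes PEG10 from an ordinary gene is its frameshift site, shown because the table gives 1 value for PEG10 and so does not separate the product of the first frame from the joined product. The 55 bases below, bases 1409 to 1463 of GENCODE v29 transcript ENST00000482108.1, carry the slippery heptamer in capitals, its only occurrence in the 6618 bases of the transcript. The first frame runs for 325 codons, and the second frame runs for 390 codons from the heptamer.
PEG10 frameshift site: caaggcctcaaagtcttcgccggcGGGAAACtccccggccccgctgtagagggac

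The 250 bases before the start of CASD1 and of PPP1R9A are shown because the first gene had reads in every library and the second in none. They are RefSeq sequences of GRCh38.p14, plus strand, with every CG pair in capitals, the pair at which DNA methylation is placed and which reads the same on both strands. The CASD1 window, chr7:94509559-94509808, holds 19 CG pairs, and 34.6% of 35116 windows of the same length hold as many or more. The PPP1R9A window, chr7:94907344-94907593, holds 13, and 46.6% hold as many or more, the median being 11. Methylation was not measured. No promoter was shown for COL1A2, SGCE or PEG10.
CASD1 window: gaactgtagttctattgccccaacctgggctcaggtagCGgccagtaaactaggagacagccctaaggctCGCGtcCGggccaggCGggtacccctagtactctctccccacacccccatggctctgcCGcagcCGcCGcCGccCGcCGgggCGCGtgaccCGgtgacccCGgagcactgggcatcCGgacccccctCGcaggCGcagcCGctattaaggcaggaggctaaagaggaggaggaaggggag
PPP1R9A window: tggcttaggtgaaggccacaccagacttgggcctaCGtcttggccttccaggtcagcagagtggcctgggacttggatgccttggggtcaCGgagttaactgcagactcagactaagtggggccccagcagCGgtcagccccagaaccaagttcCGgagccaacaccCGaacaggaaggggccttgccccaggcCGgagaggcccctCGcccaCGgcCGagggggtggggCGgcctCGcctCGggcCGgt

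The 5 neighbours did not share 1 direction. PEG10 and COL1A2 were higher in R5W than in WT, CASD1 and SGCE between them overlapped between the groups, and PPP1R9A was listed at 0 in all 4 libraries. Values are scaled reads, that is, the authors' deposited log2 value taken back to the linear scale, where 1 read is worth 1.17 to 1.32 depending on the library.

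PEG10 (gene ID 23089, transcript length 6624 bases) had 1155 and 1264 scaled reads in R5W, against 132.5 and 212.0 in WT. Both R5W libraries lay far above both WT libraries, and the WT libraries also differed from each other by more than counting error, with exact 95% Poisson intervals of 109.2 to 159.3 and 181.5 to 246.2. These intervals cover counting error only. The means were 1210 ± 77.0 in R5W and 172 ± 56.2 in WT (SD, n = 2 each). The difference was 2.84 on the log2(value + 1) scale (SE 0.19), a fold of 7.17, and ranked 9 among the 13698 tested genes. In these bulk samples, more cells with PEG10 RNA and more PEG10 RNA per cell cannot be told apart. The size depended on the WT library kept, being 2.50 without WT replicate 1 and 3.18 without WT replicate 2.

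COL1A2 (gene ID 1278, 5417 bases), the outermost member on the other side, had 298.6 and 310.0 scaled reads in R5W, against 93.8 and 109.7 in WT. The groups did not overlap, and each was tight. The means were 304.3 ± 8.05 in R5W and 101.8 ± 11.3 in WT (SD, n = 2 each), a difference of 1.58 on the log2 scale (SE 0.16) and a fold of 2.98, at rank 95. These values rest on 243 and 235 reads in R5W and 80 and 89 reads in WT.

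CASD1 (gene ID 64921, 3888 bases) had 659.9 and 689.8 scaled reads in R5W, against 664.9 and 722.6 in WT. The groups overlapped, and the difference was -0.04 on the log2 scale (SE 0.10). SGCE (gene ID 8910, 1781 bases), the head-to-head partner of PEG10, had 170.8 and 168.9 scaled reads in R5W, against 178.3 and 163.9 in WT. Its groups overlapped too, and the difference was -0.01 (SE 0.16). Without WT replicate 2 the CASD1 difference was 0.02, and without WT replicate 1 that of SGCE was 0.05, so neither had a stable sign.

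PPP1R9A (gene ID 55607, 9697 bases) was listed at 0 reads in all 4 libraries. A count of 0 allows up to 3 reads, which is 3.69 and 3.96 scaled reads in R5W and 3.52 and 3.70 in WT. It was not tested.

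**Figure D1:**
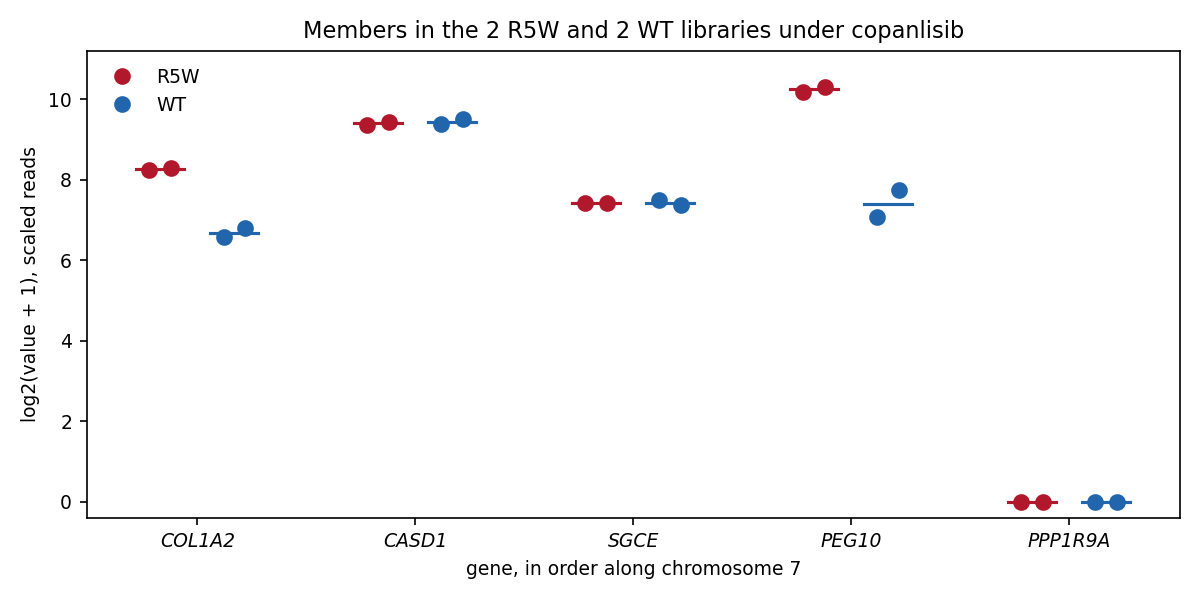
Level of the 5 members, in their order along chromosome 7, as log2(value + 1) of scaled reads; each point is 1 library, R5W in red left of WT in blue, and bars are group means. PEG10 and COL1A2 lie higher in both R5W libraries than in both WT libraries, CASD1 and SGCE overlap, and PPP1R9A is at 0.

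So 2 of the 4 members with reads had groups that did not overlap, while 62.9% of all tested genes did not overlap. Both of these 2 differed by 1 or more on the log2 scale upward in R5W, as did 2.77% of all tested genes. Since the members were chosen on this comparison, nothing is read from either count. All 4 passed the filter of 10 scaled reads in every library, so none entered through R5W alone.

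Set against each other within a library, the members separated at the border of SGCE and PEG10 and at that of COL1A2 and CASD1. The log2 ratio of PEG10 to SGCE was 2.76 and 2.90 in R5W, against -0.43 and 0.37 in WT. Per kilobase of transcript, which allows levels of different genes to be compared, PEG10 stood at 1.82 and 2.01 times SGCE in R5W and at 0.200 and 0.348 times SGCE in WT. By this measure SGCE had the higher level of the pair in WT and PEG10 in R5W. The WT order rests on the length of 1 listed transcript per gene, since the log2 ratio before that division had no consistent sign. Which transcripts were present was not measured. The log2 ratio of COL1A2 to CASD1 was -1.14 and -1.15 in R5W, against -2.83 and -2.72 in WT.

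On the same scale of scaled reads per kilobase, the order of levels in R5W was PEG10 at 182.6 ± 11.6, CASD1 at 173.6 ± 5.44, SGCE at 95.4 ± 0.748 and COL1A2 at 56.2 ± 1.49. In WT it was CASD1 at 178.4 ± 10.5, SGCE at 96.1 ± 5.69, PEG10 at 26.0 ± 8.49 and COL1A2 at 18.8 ± 2.08 (SD, n = 2 each). The group means of PEG10 and CASD1 in R5W, and of PEG10 and COL1A2 in WT, did not differ beyond their spread. Within a library, PEG10 per kilobase was 1.155 and 1.58 times COL1A2 in WT. Among all tested genes, PEG10 lay above 64.8% by scaled reads in R5W and above 28.5% in WT, and COL1A2 above 35.9% in R5W and 23.4% in WT.

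Reads of these genes can be hard to assign. In GENCODE v29, the gene spans of CASD1 and SGCE, introns included, overlap by 32816 bases on opposite strands. Those of SGCE and PEG10 overlap by 248 bases at their starts. The transcripts listed in the deposited data are far shorter, 3888 bases for CASD1 and 1781 for SGCE. How much of the overlap they cover was not worked out. The kit marked strand, but whether the counting used it is not given in the sources used here, and without it reads from the overlaps cannot be told apart.

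The region around the members was read next, as the 10 protein-coding genes on each side in RefSeq order. Of these 20 neighbours, 10 had enough reads, and 5 of the 10 passed an adjusted p of 0.05, against 25.0% of all genes tested by limma with Benjamini-Hochberg adjustment over all of them. The 2 that rose in R5W stood against a background of 13.1% of tested genes higher, and the 3 that fell against 11.9% lower. The median difference of the 10 was 0.01, and over all tested genes 0.01.

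Of the genes before COL1A2, 3 of the first 4 fell. SAMD9L, an interferon-inducible restraint on growth and on viruses, had 1902 and 2058 scaled reads in R5W against 4411 and 4621 in WT (log2 difference -1.19, SE 0.08, limma adjusted p = 8.48e-07). Its paralog SAMD9 had 1277 and 1614 in R5W against 2925 and 3026 in WT (-1.05, SE 0.10, adjusted p = 1.62e-05). Both genes were lower in both R5W libraries. HEPACAM2, an immunoglobulin-like adhesion molecule, had 73.7 and 76.5 in R5W against 131.3 and 114.6 in WT (-0.70, SE 0.20, adjusted p = 0.0210). That call was lost without WT replicate 1 (adjusted p = 0.251) and without WT replicate 2 (adjusted p = 0.105).

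CDK6, at the far edge of the window, rose. This kinase of the G1 phase had 3656 and 3891 scaled reads in R5W against 2356 and 2478 in WT (log2 difference 0.64, SE 0.08, adjusted p = 8.10e-05). On the opposite flank SLC25A13, the mitochondrial aspartate-glutamate carrier citrin, had 1128 and 1082 in R5W against 654.4 and 686.4 in WT (0.72, SE 0.10, adjusted p = 0.000146). Directly before COL1A2, BET1, a SNARE of transport from the endoplasmic reticulum to the Golgi, and GNG11, a G-protein gamma subunit, did not pass the test, at -0.04 (SE 0.09) and 0.05 (SE 0.11). VPS50 (CCDC132 in the table) stood at -0.21, SEM1 (SHFM1 in the table) at 0.18 and DLX6 at 0.54, with adjusted p from 0.130 to 0.235.

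Beyond PEG10 the region was nearly without reads. A run of 7 consecutive genes, from PPP1R9A through the paraoxonases PON1, PON3 and PON2, ASB4 and PDK4 to DYNC1I1, had at most 5 reads in any library, and 5 of the 7 had none. PON2 had 0 and 0 reads in R5W and 5 and 1 in WT. PEG10 is the last protein-coding gene with reads on this side before that run, and SLC25A13 is the first after it. A shorter gap, CALCR, TFPI2 and GNGT1, lies between VPS50 and GNG11, and DLX5 was also at 0. In all, 11 of the 25 genes of the window could not be tested.

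**Figure D2:**
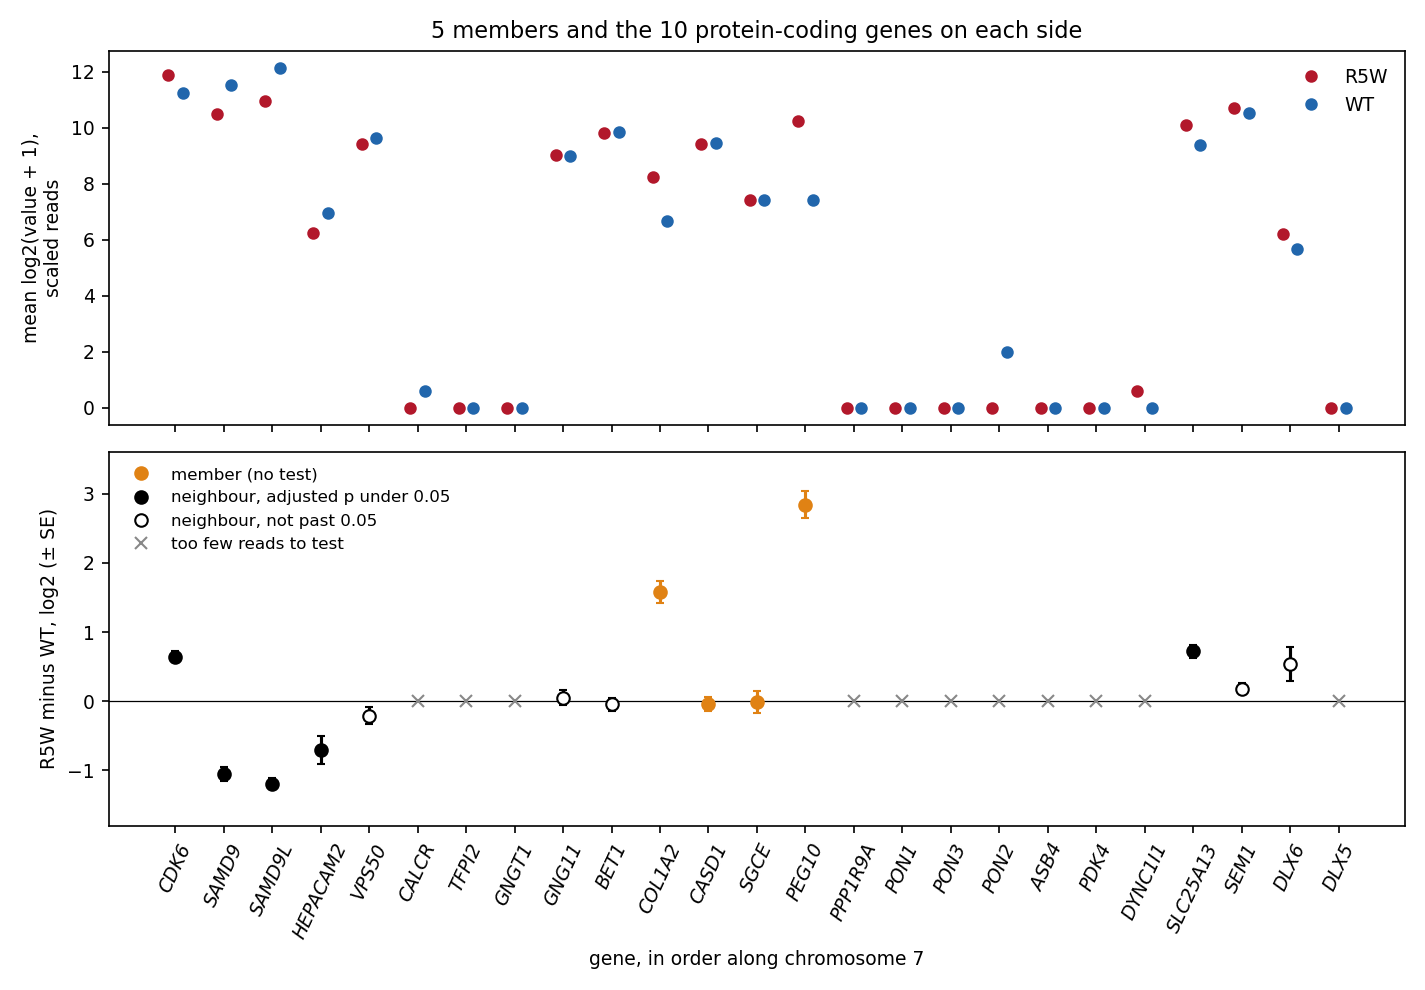
The 5 members and the 10 protein-coding genes on each side, in order along chromosome 7. The upper panel gives group means of log2(value + 1) of scaled reads, R5W red and WT blue; the lower panel gives the R5W minus WT difference with its SE, members in orange, and grey crosses for genes with too few reads. PEG10 at 2.84 and COL1A2 at 1.58 stand on either side of CASD1 and SGCE near 0, and SAMD9 and SAMD9L fell.

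Over the whole chromosome, 543 other protein-coding genes were tested, and 130 of them (23.9%) passed, 70 higher and 60 lower in R5W, with a median difference of -0.01. Of these 543 genes, 10 were higher by 1 or more on the log2 scale. None of the 543 had a larger difference than PEG10, and 2 had a larger one than COL1A2. As these members were chosen on this comparison, nothing is read from that standing.

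**Figure D3:**
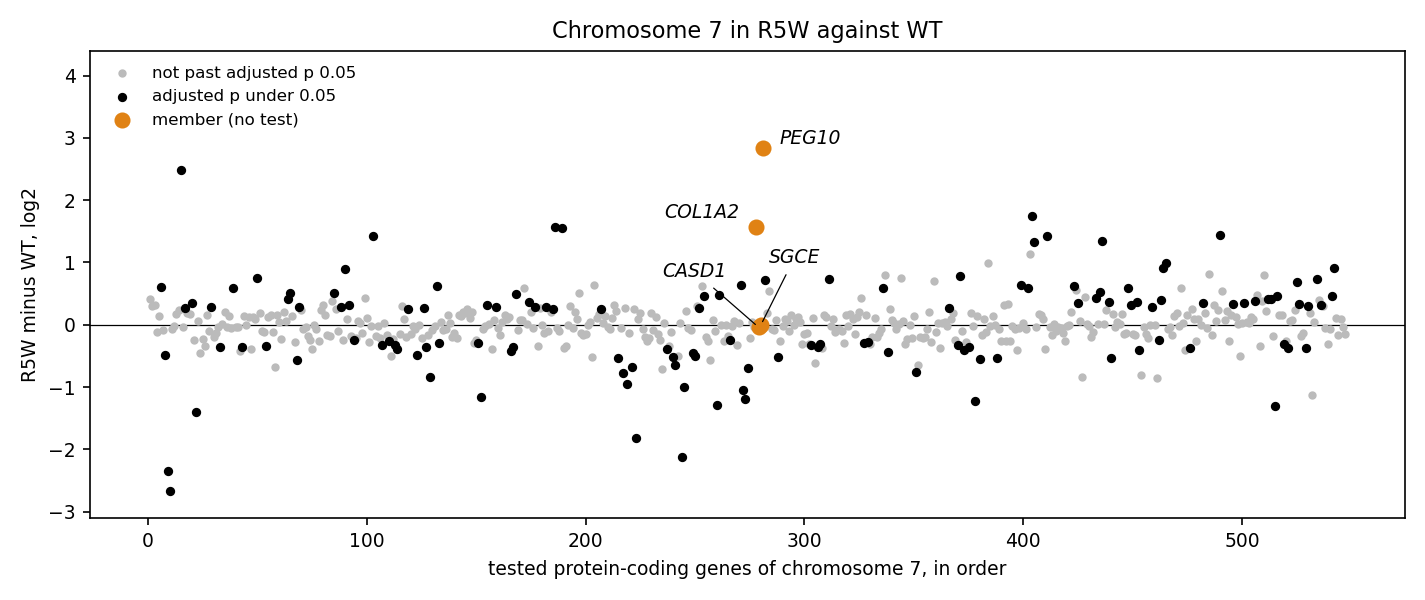
R5W minus WT log2 difference of every tested protein-coding gene of chromosome 7, in gene order; black points passed an adjusted p of 0.05, grey points did not, and members are orange. PEG10 is the highest point, while the members beside it lie near 0.

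PEG10 was then set beside genes of its kind. Of 25 genes derived from retrotransposon gag sequences, 11 were tested, and 4 rose and 1 fell in R5W (45.5% called), with a median difference of 0.32. Among all tested genes 25.0% were called, 13.1% higher and 11.9% lower. PNMA2, a paraneoplastic antigen that forms capsids, rose by 0.72 (SE 0.13, limma adjusted p = 0.00136), with 481.7 and 595.1 scaled reads in R5W against 321.3 and 329.2 in WT. PNMA1, of the same family, rose by 0.71 (adjusted p = 0.0183), ZCCHC18 by 1.24 (adjusted p = 0.0471) and RTL10 (C22orf29 in the table) by 0.33 (adjusted p = 0.0315). MOAP1, a modulator of apoptosis, fell by 0.46 (adjusted p = 0.00388). ZCCHC18 and PNMA6A passed the filter only through R5W. ZCCHC18 had 24.6 and 23.8 scaled reads in R5W against 9.38 and 9.86 in WT. PNMA6A, which was not called, had 16.0 and 13.2 in R5W against 5.86 and 4.93 in WT. The count and median of the list include both genes, so nothing is read from them.

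Among these, only PNMA2 passed with every library left out in turn. Without WT replicate 1 the adjusted p was 0.258 for RTL10, 0.103 for MOAP1 and 0.192 for ZCCHC18, and without WT replicate 2 it was 0.235 for RTL10, 0.0751 for MOAP1, 0.161 for ZCCHC18 and 0.249 for PNMA1. RTL10 also missed without R5W replicate 1 (0.0515), and ZCCHC18 had too few reads to be tested without either R5W library. The number of calls in the list fell without R5W replicate 1 and without either WT library. Over all tested genes it also fell without either WT library. RTL1, the imprinted relative of PEG10 on another chromosome, was listed at 0 in all 4 libraries.

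PEG10 and SGCE were also set beside imprinted genes elsewhere. Of 41 such genes 39 were in the table and 18 were tested, and 1 rose and 3 fell, with a median of -0.11. The share called was 22.2%, against 25.0% of all tested genes. Which parental copy the reads came from was not measured for any listed gene. PLAGL1, a zinc finger regulator, rose by 0.84 (SE 0.13, limma adjusted p = 0.000429), with 726.1 and 688.8 scaled reads in R5W against 347.1 and 446.3 in WT. IGF2R, the receptor that clears IGF2, fell by 0.59 (SE 0.09, adjusted p = 0.000535), with 2400 and 2908 in R5W against 3954 and 4003 in WT. SLC22A18 fell by 0.64 (adjusted p = 0.0411) and RB1, the retinoblastoma regulator of the cell cycle, by 0.23 (adjusted p = 0.0392).

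The last 2 calls did not hold without single libraries. SLC22A18 had adjusted p of 0.114 without R5W replicate 2, 0.218 without WT replicate 1 and 0.255 without WT replicate 2, and RB1 had 0.0622 without R5W replicate 1, 0.274 without WT replicate 1 and 0.336 without WT replicate 2. The number of calls in the list rose without R5W replicate 2 and fell without either WT library, as it did over all tested genes. Of the listed imprinted genes, 12 were at 0 in every library, among them MEG3, DLK1 and CDKN1C.

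Genes that handle PEG10 protein were also read. The list holds the ubiquitin ligase UBE3A, which is also on the imprinted list, the ubiquilins UBQLN1, UBQLN2 and UBQLN4, the deubiquitinase USP9X, ATXN10 and TSG101. By limma 0 of the 7 passed, against 25.0% of all tested genes. An unadjusted p under 0.05 was seen for 2, UBQLN4 at 0.28 (adjusted p = 0.0555) and UBE3A at -0.22 (adjusted p = 0.0611). Limma voom on the recovered reads called 0, while 1 passed with no filter, with median-of-ratios scaling or with the replicate block. The count also rose without R5W replicate 2, as did that over all tested genes. The median was 0.04. UBQLN2, which targets PEG10 protein for degradation, had 2016 and 1817 scaled reads in R5W and 1755 and 1822 in WT (0.10, SE 0.09, adjusted p = 0.447).

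For SGCE, the sarcoglycan and dystrophin complex was read as a list of 16 genes, of which 11 were tested. None rose and 4 fell (36.4% called), with a median of -0.22, against 13.1% higher and 11.9% lower among all tested genes. DMD, which encodes dystrophin, had 1681 and 2042 scaled reads in R5W against 3840 and 3593 in WT (fold 0.499, limma adjusted p = 1.14e-05). Sarcospan, SSPN, fell by 1.03 (adjusted p = 7.14e-06), and the syntrophin SNTB1, an adaptor bound to dystrophin, fell by 1.26 (adjusted p = 1.30e-06). SGCE itself differed by -0.01. The other sarcoglycan with many reads, SGCB, had 1101 and 1043 in R5W and 1072 and 1149 in WT (-0.05, SE 0.09). SGCA, which passed the filter only through R5W and was not called, had 12.3 and 10.6 in R5W and 3.52 and 2.47 in WT. The count and median of the list include SGCA, so nothing is read from them. SGCD and SGCZ were at 0.

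For CASD1, the sialic acid list had 21 of 27 genes tested, with 2 higher, 7 lower (42.9% called) and a median of -0.17, against 13.1% higher and 11.9% lower among all tested genes. ST3GAL4, a sialyltransferase, rose by 1.05 (limma adjusted p = 0.00722), with 136.3 and 95.0 scaled reads in R5W against 48.1 and 61.6 in WT, and NANP, a phosphatase of sialic acid synthesis, rose by 0.58 (adjusted p = 0.00669). The sialic acid receptor SIGLEC10 had 13920 and 14220 in R5W against 20030 and 19270 in WT, and fell by 0.48 (SE 0.07, adjusted p = 0.000308). ST6GAL1, the main sialyltransferase of B-cell surface glycans, fell by 0.48 (adjusted p = 0.00457), ST6GALNAC6 by 0.49 (adjusted p = 0.00746) and SIGLEC6 by 0.43 (adjusted p = 0.00385). SIAE, the esterase that removes the O-acetyl groups CASD1 adds, had 253.2 and 248.0 in R5W and 307.2 and 263.7 in WT (-0.18, SE 0.14, adjusted p = 0.376). Without WT replicate 1 the differences were 0.874 for ST3GAL4, 0.468 for NANP, -0.417 for ST6GAL1, -0.413 for ST6GALNAC6 and -0.342 for SIGLEC6. All of these missed the threshold in that fit, in which fewer genes of the list and of the whole table passed. ST6GALNAC6 also missed without WT replicate 2 (difference -0.574).

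For COL1A2, the list of collagens and collagen processing had 21 of 30 genes tested, with 6 higher, 2 lower (38.1% called) and a median of 0.12, against 13.1% higher and 11.9% lower among all tested genes. COL1A1, which encodes the chain that pairs with COL1A2 in type I collagen, had 406.8 and 386.7 scaled reads in R5W against 137.2 and 178.8 in WT (log2 difference 1.34, SE 0.16, limma adjusted p = 5.46e-05). The level of COL1A2 per kilobase was 0.804 and 0.878 times that of COL1A1 in R5W and 0.749 and 0.672 times in WT. SPARC, a collagen-binding matrix protein, rose by 1.35 (SE 0.23, adjusted p = 0.000926), LOXL2, which cross-links collagen, by 0.69 (adjusted p = 0.000194) and BMP1, which trims procollagen, by 0.80 (adjusted p = 0.0491). The other 2 that rose, COL5A1 (0.68) and COL5A2 (0.59), were named after their values were seen. P4HA2, a collagen prolyl hydroxylase, fell by 0.97 (adjusted p = 0.000152) and COL9A3 by 0.58 (adjusted p = 0.00440).

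Several of these calls did not hold when 1 library was left out. In such a fit the lone sample of its group adds no spread, and the number of calls over all tested genes also changed. Without WT replicate 1 the differences were 0.889 for BMP1, 0.578 for COL5A1, 0.497 for COL5A2 and -0.435 for COL9A3. All of these missed the threshold there. COL5A2 also missed without R5W replicate 1 (difference 0.427) and without WT replicate 2 (0.674). BMP1 missed with each library left out in turn, with differences of 0.704 to 0.889. In the other alternatives that lost BMP1 the adjusted p was 0.0515 to 0.0572.

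Markers of fibroblasts, cells known for type I collagen, were read beside these genes. The 10 markers summed to 548 and 577 scaled reads in R5W against 260 and 281 in WT, and most of the sum was COL1A1, which is also on the collagen list. Of the 3 tested, COL1A1 and PDGFRB rose, against 13.1% of all tested genes higher. PDGFRB, a growth factor receptor, had 68.8 and 79.2 in R5W against 15.2 and 19.7 in WT (2.03, SE 0.30, limma adjusted p = 0.000400). DCN, which encodes decorin, had 70.0 and 105.6 in R5W and 103.2 and 76.4 in WT (-0.05, SE 0.25, adjusted p = 0.917). The other 7, COL3A1, LUM, PDGFRA, THY1, FAP, POSTN and TWIST1, had at most 3 reads in any library, and POSTN had 0 in all 4.

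For PPP1R9A, 11 of 12 genes of neurabin and protein phosphatase 1 were tested, and 0 rose and 2 fell, with a median of -0.03. The share called was 18.2%, against 25.0% of all tested genes. The second neurabin gene PPP1R9B, which encodes spinophilin, was abundant, with 15830 and 14200 scaled reads in R5W and 15880 and 15540 in WT (-0.07, SE 0.08, limma adjusted p = 0.565). PPP1R2, an inhibitor of the phosphatase, fell by 0.38 (adjusted p = 0.0220) and RGS2, which turns off G proteins, by 0.36 (adjusted p = 0.0213). Without WT replicate 1 both missed, at 0.242 for PPP1R2 and 0.366 for RGS2, and likewise without WT replicate 2, at 0.103 for PPP1R2 and 0.0819 for RGS2. Over the list and over all tested genes, calls fell without either WT library and rose without R5W replicate 1.

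**Figure D4:**
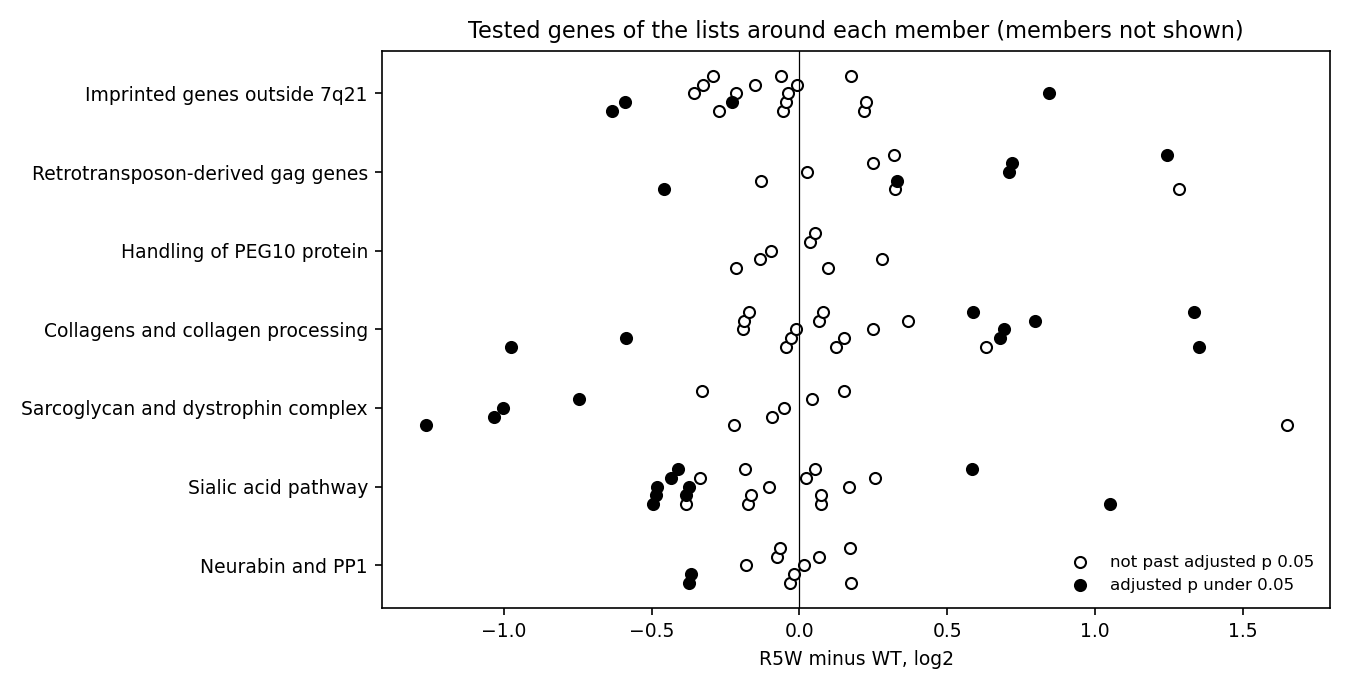
R5W minus WT log2 difference of each tested gene in the 7 lists set beside the members; filled points passed an adjusted p of 0.05 and open points did not, and height within a list has no meaning. The sarcoglycan and dystrophin list has 4 filled points, all below 0, and the collagen list has 6 filled points above 0 and 2 below.

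Finally, the 3 tested genes whose 4 log2 values, centred on their own mean, lay nearest to each member were named, as a description over 4 libraries. Nearest to PEG10 were KLHL4, with a difference of 3.10 and a Euclidean distance of 0.294, ALDH7A1, an aldehyde dehydrogenase (2.63, distance 0.310), and ZNF675, a zinc finger protein (2.79, distance 0.311). Nearest to COL1A2 were SEPTIN5 (1.54, distance 0.0702), HSP90B3P (1.59, distance 0.132) and BEX2 (1.51, distance 0.137). KLHL4, ZNF675, HSP90B3P and BEX2 passed the filter only through R5W, since at most 1 WT library reached 10. Nearest to CASD1 were ZCCHC11, GOLGA3 and LOC401397, and nearest to SGCE were MPP1, THOC5 and RPLP2, with differences between -0.045 and 0.002. No member was among the nearest genes of another.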

How the data were processed

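The deposited table gave a log2 value per library for 25073 gene symbols, with a transcript length in bases. Per the labels' protocols, these libraries were made with a stranded mRNA kit and sequenced in pairs. The submitters' processing notes name STAR, RSEM, Picard, cutadapt and bcl2fastq and the builds GRCh37 and hg19, while versions and roles were not given in the sources used here. With the logarithm undone, 100% of values up to 200 reads were whole multiples of a value per library, within 0.1 read, which gave the reads per library. The 27 symbols turned into dates were restored.

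R5W and WT were compared with limma 3.58.1 (trend, robust; R 4.3.3) on log2(value + 1), which understates changes of low genes, for genes at 10 or more in at least 2 libraries, with Benjamini-Hochberg adjustment over all 13698 and a threshold of 0.05. The fit was tested on simulated data. Gene order and names came from RefSeq (GRCh38.p14), whose coordinates were used only for the promoter windows. Named are the members, tested neighbours, up to 4 called genes per list and direction, 3 nearest genes per member, and RHOA; some genes are not reported here. Members and lists were chosen with earlier results of these data known.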

Additional observations from a re-analysis of the deposited data

How the results depend on the processing

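Over the 11 alternatives tried, the log2 difference stayed between 2.50 and 3.18 for PEG10, 1.46 and 1.69 for COL1A2, -0.10 and 0.02 for CASD1 and -0.07 and 0.05 for SGCE, and PPP1R9A gave no value because it had no reads. Of the tested neighbours, 4 to 7 passed, against 5. The number of genes that passed was 3428. It ranged from 1024 without WT replicate 1 to 5668 without R5W replicate 2, was 1205 without WT replicate 2, and lay between 3309 and 3713 under the alternatives that kept all libraries; in each of the 4 fits without 1 library, the lone sample of its group is assumed to vary like the other group, and the cause of the spread in counts was not tested. With the replicate number as a replicate block, 3713 genes passed. The labels do not say whether same-numbered samples were handled together. Their deviations from the group means had a correlation of -0.06 over 13698 genes, which with 2 replicates per group cannot settle this. Of the 51 called genes looked at one by one, 24 passed under every alternative and 26 were lost without at least 1 library, 25 of them without WT replicate 1. Under the alternatives that kept all libraries, BMP1 was lost, and ZCCHC18, BEX2 and ZNF675 were not tested with the filter at 50; ZNF675 and ZCCHC18 were also not tested without either R5W library. With 2 libraries per group and 80 to 113 reads in the lower WT values of COL1A2 and PEG10, precision is limited by replicates and by the reads of each gene.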
